A study of Mus musculus with 12 samples.

Results

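The libraries compared here are the 6 made from 4T1 cells carrying a plasmid and the 3 made from 4T1 cells carrying none, 9 of the 12 libraries of the series. 4T1 is a mouse mammary tumour cell line that spreads to the lung when grown in mice. The mock cells hold the plasmid pcDNA3.1 without an insert, and the MYBup cells hold pcDNA3-mMyb, which expresses mouse Myb. The wt cells are untransfected and were not passaged in animals. The labels give the lung metastatic activity of mock and wt cells as normal and that of MYBup cells as low. The study also holds 3 libraries of lung3 cells, which are untransfected, were passaged 3 times through lungs and have high lung metastatic activity. The study compared MYBup with mock and lung3 with wt. The question here is which genes stood at another level than in wt in both plasmid lines, with and without the Myb insert. Such genes were chosen as those past the test threshold in mock against wt and in MYBup against wt, with the same sign. There were 2125 of them among 11291 tested genes, out of 22880 features in the count table.

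Plasmids of the pcDNA3 family drive an insert from a strong viral promoter and carry a gene for drug resistance, so that cells which keep the plasmid can be selected and grown as a line. Making such a line takes transfection, selection and extra time in culture, and a line grown from few founder cells also keeps whatever those founders had. The wt cells are untransfected, and the effects of the plasmid, of selection, of passage and of founder cells cannot be told apart in this comparison. Nothing in the labels tells if either plasmid line is a pool or a clone, if a drug was used, or if the 3 libraries of each group stem from different cultures. The p-values measure only how these libraries vary, and that variation may be technical. Mock and MYBup were both compared with the same 3 wt libraries, so a wt library with an unusual level moves both comparisons the same way.

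Levels are given as CPM, read counts scaled by library size, for replicates 1, 2 and 3 of a group in that order. Myb, which encodes the transcription factor c-Myb (ENSMUSG00000019982, GRCm38 chr10:21124935-21160984), stood at 39.3, 42.9 and 39.8 CPM in MYBup. It stood at 5.17, 4.49 and 6.80 CPM in mock and at 4.27, 4.96 and 5.75 CPM in wt. MYBup was higher than wt by 3.02 on the log2 scale (SE 0.15, adjusted p = 7.05e-08), and mock and wt differed by 0.14 (adjusted p = 0.541). The MYBup libraries were thus the only ones of the 9 with raised Myb, as labelled. Transcripts of the insert and of the endogenous gene cannot be told apart, and the exons of Myb overlap those of Gm26577.

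Total counts ran from 12170188 to 21104811 in the plasmid libraries and from 20617046 to 24745660 in wt. Replicates of a group differed by more than counting noise: the chi-square per gene ran from 2.28 for MYBup replicates 2 and 3 to 36.5 for mock replicates 2 and 3. The 8 mammary tumour cell markers summed to 2992 to 3425 CPM in wt, 3632 to 4023 in mock and 3215 to 3360 in MYBup, so all groups held the markers of the labelled cell type. Of 10 leukocyte markers, 8 stayed under 1 CPM in every library, with Cd3e, Adgre1 and Tyrobp at 0 throughout. Cd68 stood at 2.29 to 8.15 CPM, and S100a8 reached 1.04 CPM. Of 8 fibroblast markers, 7 stayed under 1 CPM, with Lum at 0. The fibroblast sum, 21.8 to 30.4 CPM in wt and 36.9 to 49.0 CPM in the plasmid lines, was carried by Pdgfra, a growth factor receptor gene that was higher in both lines by 0.62 and 0.76 on the log2 scale. Of 8 endothelial markers, 6 stayed under 1 CPM, with Kdr and Cldn5 at 0. Egfl7 stood at 6.21 to 10.6 CPM, and Tie1 reached 1.52 CPM.

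Both plasmid lines lay far from wt, and a large group of genes moved the same way in both. Of the 11291 tested genes, 4056 (35.9%) differed between mock and wt and 4308 (38.2%) between MYBup and wt. The same way in both were 2125 genes (18.8%), of which 1114 (9.87%) were higher and 1011 (8.95%) lower than in wt. Opposite ways were called for 168 genes (1.49%). The mean of both lines, each weighted equally, differed from wt for 4519 genes (40.0%), 2221 higher (19.7%) and 2298 lower (20.4%), and all 2125 shared genes were among them; with upper-quartile scaling the balance turned to 2628 higher and 1850 lower. Most shared shifts were small: the smaller of a gene's 2 log2 fold changes had a median of 0.48 among the higher genes (quartiles 0.34 and 0.74) and of 0.43, as a size, among the lower genes (quartiles 0.32 and 0.60). At least 2-fold in both lines were 246 genes, 144 higher and 102 lower, and at least 4-fold 63 genes, 28 higher and 35 lower. With upper-quartile scaling the shared genes split into 1343 higher and 788 lower, 63.0% higher against 52.4% with TMM scaling. Among the genes nearest the threshold were Selenow and Zfp605 just inside, with a larger adjusted p of 0.0499 and 0.0498, and Ppp2r5c just outside, with 0.0501.

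The levels of single libraries separated as the fitted values did for most shared genes. In 2054 of the 2125 shared genes all 6 plasmid libraries lay on one side of all 3 wt libraries, where 3233 of all tested genes (28.6%) did so. Since the shared genes were chosen for such differences, that count is a description. In 924 of the 1114 higher and 885 of the 1011 lower genes the plasmid libraries lay on one side of all 6 untransfected libraries, wt and lung3 together. Of the 3233 tested genes apart from wt, 2485 (22.0% of all tested genes) also lay apart from lung3. Lung3 cells are a second set of untransfected cells and differed from wt in 605 of 11291 genes (5.36%). The shared genes were chosen for differing from wt, so these counts too are a description. The lung3 levels enter neither comparison with wt, but the lung3 libraries share the filter and the estimate of spread; with the 9 other libraries alone, 2067 genes were shared, 1962 of them among the 2125. The plasmid lines also differed from each other, by 3038 of 11291 genes (26.9%) between MYBup and mock. Among the 2125 shared genes 414 differed between the lines, with 217 farther from wt in MYBup and 197 farther in mock, and for the other 1711 no difference was called. That count of 414 fell to 232 without mock replicate 1, 275 without MYBup replicate 1, 218 without MYBup replicate 2, 210 without MYBup replicate 3 and 272 without wt replicate 1.

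**Figure D1:**
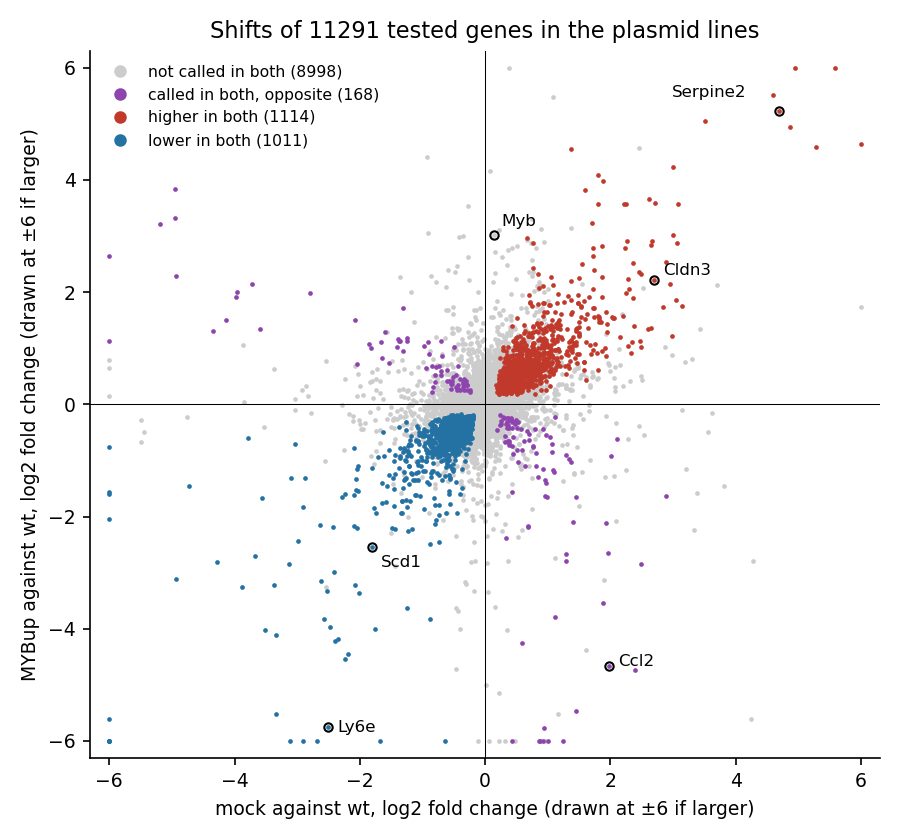
Log2 fold change of each of 11291 tested genes in mock against wt (x axis) and in MYBup against wt (y axis), drawn at 6 where larger in size. The 1114 genes called higher in both lines (red) fill the upper right, the 1011 called lower in both (blue) the lower left, and the 168 called opposite ways (purple) the other corners. Both axes use the same 3 wt libraries.

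The plot of the lines' log2 fold changes against each other shows Serpine2 and Cldn3 far up in the corner of shared rises, Scd1 and Ly6e in that of shared falls, and Myb moved along the MYBup axis alone. The shared wt libraries put part of the spread of all genes along the diagonal, so the slope of the cloud is not a measure of likeness.

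Among genes whose average log2 CPM was 3 or more, the largest shared rises, ranked by the smaller of the 2 changes, included genes for a protease inhibitor, a matrix protease, a tight junction protein and an enzyme of fatty acid oxidation. Serpine2, a secreted inhibitor of plasminogen activators and thrombin (ENSMUSG00000026249, chr1:79794197-79861180), stood at 3.14, 2.73 and 6.19 CPM in wt. It stood at 124, 134 and 49.9 CPM in mock and at 154, 148 and 145 CPM in MYBup. All plasmid libraries were far above all wt libraries, and above the lung3 libraries at 2.76, 3.35 and 2.91 CPM, while mock replicate 3 was the lowest of the plasmid libraries. The log2 fold changes were 4.69 in mock (SE 0.36, adjusted p = 1.99e-06) and 5.22 in MYBup (SE 0.36, adjusted p = 8.02e-07), and the lines differed by 0.54 (adjusted p = 0.176).

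Marcks, an actin-binding substrate of protein kinase C (ENSMUSG00000069662, chr10:37133375-37138920), stood at 29.4, 29.7 and 42.3 CPM in wt. It rose to 112, 128 and 130.0 CPM in mock and 179, 157 and 154 CPM in MYBup, with log2 fold changes of 1.86 (SE 0.16) and 2.27 (SE 0.16). All plasmid libraries were above all untransfected ones, of which wt replicate 3 was the highest. Mmp3, the matrix protease stromelysin-1 (ENSMUSG00000043613, chr9:7445822-7455975), stood at 222, 257 and 146 CPM in wt, 727, 839.9 and 629 CPM in mock and 644, 535 and 551 CPM in MYBup. All plasmid libraries were above all untransfected ones, with lung3 at 127 to 223 CPM, and the log2 fold changes were 1.81 (SE 0.21) and 1.47 (SE 0.21).

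Cldn3, a tight junction protein (ENSMUSG00000070473, chr5:134986214-134987472), stood at 4.59, 3.3 and 16.3 CPM in wt, 40.5, 33.2 and 80.4 CPM in mock and 21.8, 41.4 and 46.5 CPM in MYBup. The replicates spread more than for the other leading genes, with wt replicate 3 and mock replicate 3 highest in their groups, and the log2 fold changes of 2.69 and 2.21 had an SE of 0.53 and 0.54 (adjusted p = 0.0018 and 0.006). Cldn3 shares 40 bases of exon with Wbscr25. Cpt1a, the carnitine palmitoyltransferase that admits fatty acids to mitochondria for oxidation (ENSMUSG00000024900, chr19:3322334-3385733), stood at 20.9, 24.4 and 20.7 CPM in wt. It rose to 70.9, 62.7 and 53.9 CPM in mock and 56.4, 62.5 and 62.9 CPM in MYBup, by 1.51 (SE 0.12) and 1.46 (SE 0.12) on the log2 scale. The rise in Cpt1a was alike in size in both lines, and lung3 stood at 24.0 to 29.7 CPM, close to wt.

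The other leading rises under that limit were Vangl2 of the planar cell polarity pathway (1.58 in mock and 1.84 in MYBup on the log2 scale), the kinase gene Dmpk (1.82 and 1.55), Padi1, which converts arginine to citrulline in proteins (1.54 and 1.73), and Vasn, which encodes a surface protein that binds TGF-beta (1.5 and 2.24). They also held the adhesion receptor gene Adgrg3 (1.37 and 1.60), the cytochrome P450 gene Cyp1b1 (1.5 and 1.24) and the forkhead factor gene Foxc2 (1.17 and 1.47). For Cyp1b1 the lung3 libraries, at 6.98, 11.1 and 14.3 CPM, overlapped the plasmid libraries. Padi1 and Vasn share exon bases with Gm13032 and Dnaja3.

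By the same ranking and limit on level, the largest shared falls included genes for a lipid desaturase, a secreted protease, tissue factor and a growth factor carrier. Scd1, the desaturase that makes oleic acid from stearic acid (ENSMUSG00000037071, chr19:44394455-44407879), stood at 130.0, 96.5 and 155 CPM in wt. It fell to 45, 36.8 and 26.5 CPM in mock and 24.0, 21.1 and 20.5 CPM in MYBup, a log2 fold change of -1.81 (SE 0.20) and -2.54 (SE 0.21). Every plasmid library was under every untransfected library, with lung3 at 114 to 159.6 CPM. The fall was larger in MYBup, by 0.73 on the log2 scale (adjusted p = 0.0194).

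Adamts1, a secreted metalloprotease that cleaves proteoglycans (ENSMUSG00000022893, chr16:85793827-85803113), stood at 169, 162 and 184 CPM in wt, 35.4, 28.7 and 41.8 CPM in mock and 51.9, 55.1 and 55.7 CPM in MYBup. Here the fall was larger in mock, at -2.28 (SE 0.12) against -1.66 (SE 0.12) in MYBup. F3, tissue factor, the surface receptor that starts blood clotting (ENSMUSG00000028128, chr3:121723537-121735048), stood at 13.2, 13.3 and 14.4 CPM in wt and fell to 3.61, 4.21 and 5.30 CPM in mock and 5.13, 4.95 and 5.39 CPM in MYBup. Its log2 fold changes were -1.65 and -1.40, and lung3, at 23.8 to 30.8 CPM, lay on the far side of wt.

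Ly6e, a lipid-anchored surface protein (ENSMUSG00000022587, chr15:74955051-74959905), stood at 8.91, 8.47 and 16.4 CPM in wt, 1.94, 2.71 and 1.31 CPM in mock and 0.163, 0.296 and 0.160 CPM in MYBup. Summed counts were 743 in wt, 99 in mock and 9 in MYBup, which per library size was 5.64-fold lower in mock (95% interval 4.57 to 7.03) and 54.8-fold lower in MYBup (28.7 to 120.4). The lines thus shared the direction and differed in size (adjusted p = 0.00613), and lung3 was higher than wt, at 29.3 to 59.5 CPM. Fgfbp1, a secreted carrier of fibroblast growth factors (ENSMUSG00000048373, chr5:43978858-43981779), stood at 39.0, 30.4 and 48.7 CPM in wt, 11.8, 15.1 and 8.17 CPM in mock and 2.53, 2.29 and 2.51 CPM in MYBup. It had the same order of groups as Ly6e, with lung3 highest at 52.3 to 82.1 CPM and MYBup lowest.

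The other leading falls were Samsn1, a signalling adaptor of lymphocytes (-2.02 in mock and -1.54 in MYBup), Ccnb1ip1 (-2.05 and -1.53), Lingo3 (-1.57 and -1.46), the exchange factor gene Spata13 (-1.46 and -1.80) and the zinc finger gene Zfp704 (-1.34 and -1.93). They also held the nuclear pore gene Nup210 (-1.33 and -1.95) and Lama3, a chain of laminin-332 in the epithelial basement membrane (-1.33 and -1.72). Ccnb1ip1 shares exon bases with Rpph1. Of these 24 leading rises and falls 22 kept all plasmid libraries apart from all 6 untransfected libraries, the exceptions being Cyp1b1 and Zfp704. Over all tested genes 22.0% did so, but the 24 were chosen for lying apart from wt, so that count is a description. Between the lines 7 of the 24 differed, close to the 26.9% of all tested genes that did.

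**Figure D2:**
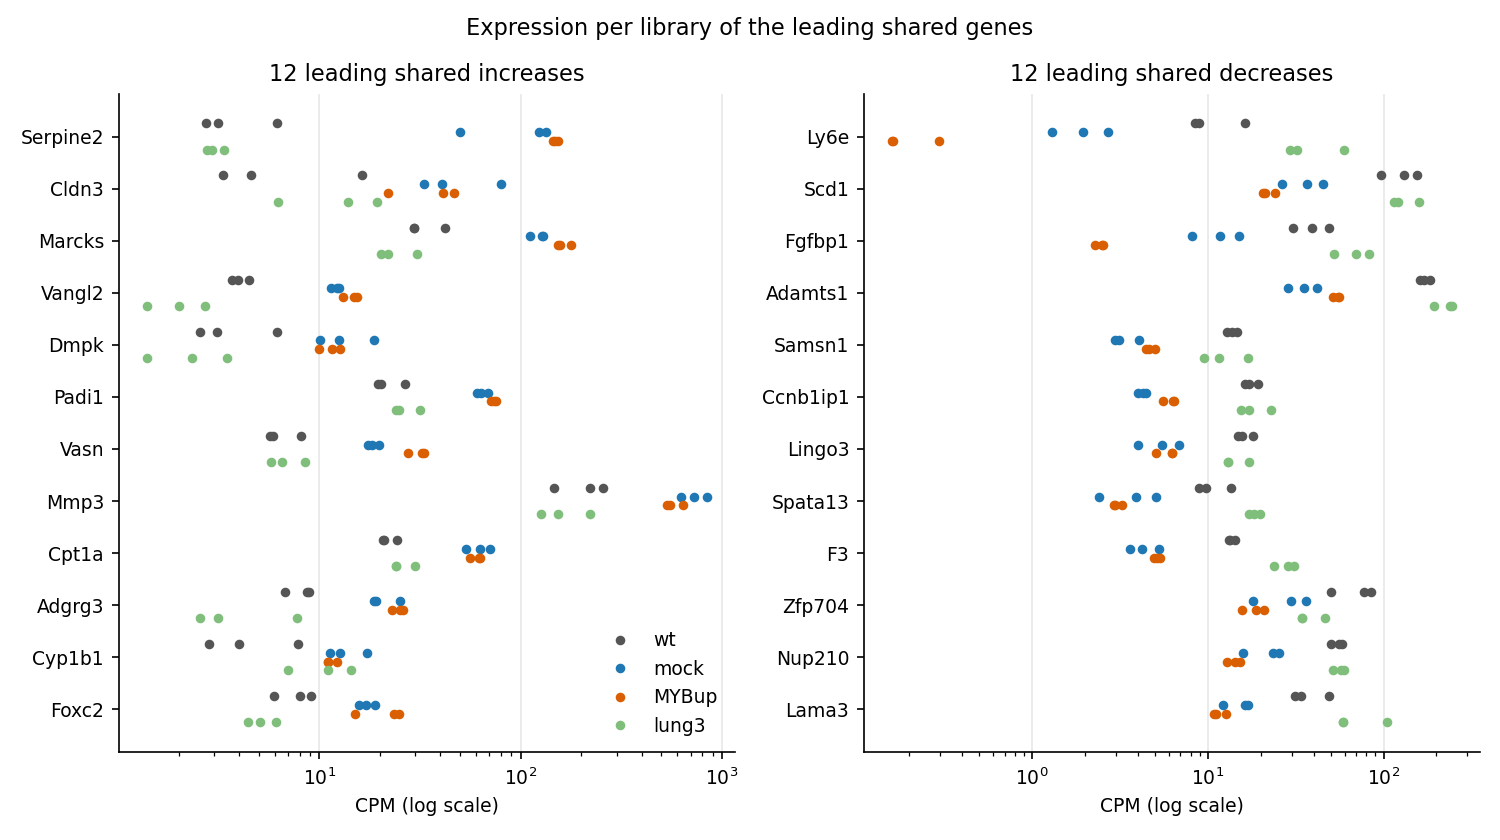
CPM (log axis) of the 12 leading shared rises and 12 leading shared falls, 1 point per library, in wt, mock, MYBup and lung3. In each gene the 6 plasmid libraries lie on one side of the 3 wt libraries; in Cyp1b1 and Zfp704 they overlap lung3.

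The plot of the leading genes by library shows the lung3 libraries near or beyond the wt libraries in most falls, and the wider spread of Cldn3. It also shows how Ly6e and Fgfbp1 step down from wt to mock and again to MYBup.

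Some genes were present in every wt library and near 0 in all plasmid libraries. Hexa, the alpha subunit of the lysosomal enzyme beta-hexosaminidase A (ENSMUSG00000025232, chr9:59539540-59565109), stood at 8.77, 8.22 and 7.53 CPM in wt and at 6.98, 6.81 and 10.3 CPM in lung3. It had 0 counts in all 6 plasmid libraries, against 549 counts in wt and 303 in lung3. Taking 3 counts per group as the floor, both lines together were at least 259-fold lower than wt, mock alone at least 138-fold and MYBup alone at least 122-fold. This was the only tested gene with 0 counts in all plasmid libraries and at least 2 CPM in every wt library. Hexa shares 255 bases of exon with Tmem202 on the other strand. Of its neighbours, Adpgk, Bbs4, Arih1, Parp6 and Pkm were not called in both lines, and Gramd2 was lower in both (-0.97 in mock and -1.87 in MYBup).

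Dapk1, a calmodulin-dependent kinase that promotes cell death (ENSMUSG00000021559, chr13:60601947-60763191), stood at 5.50, 7.02 and 4.51 CPM in wt. It had 2 counts in mock and 3 in MYBup, against 385 in wt, a ratio of 109 (46.3 to 338). Lung3 stood between, at 1.82, 2.08 and 2.01 CPM, and was itself lower than wt by 1.53 on the log2 scale (adjusted p = 0.00343). Hexa and Dapk1 were the 2 genes at 0.2 CPM or less in each plasmid library and at 2 CPM or more in each wt library, and 0 genes showed the reverse by this rule on levels, which involves no test.

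With the low limit at 0.5 CPM, Rab25 and Cplx2 joined them. Rab25, a GTPase of epithelial membrane recycling (ENSMUSG00000008601, chr3:88542029-88548300), had 619 counts in wt, 154 in lung3, 1 in mock and 8 in MYBup, a ratio of 97.4 (51.0 to 214) between wt and both lines. Cplx2, which encodes a protein of regulated vesicle release (chr13:54371349-54383917), had 203 counts in wt, 93 in lung3, 10 in mock and 14 in MYBup, a ratio of 12 (7.82 to 19.1). The lung3 libraries had lower total counts than wt. Scaled by library size, Cplx2 stood at a mean of 2.71 CPM in lung3 and 3.02 CPM in wt (log2 fold change -0.21, adjusted p = 0.793). Of the neighbours of Rab25, Slc25a44, Lmna, Lamtor2 and Ssr2 were not called in both lines. Mex3a was higher in both (0.63 and 0.73) and Ubqln4 lower in both (-0.42 and -0.54).

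**Figure D3:**
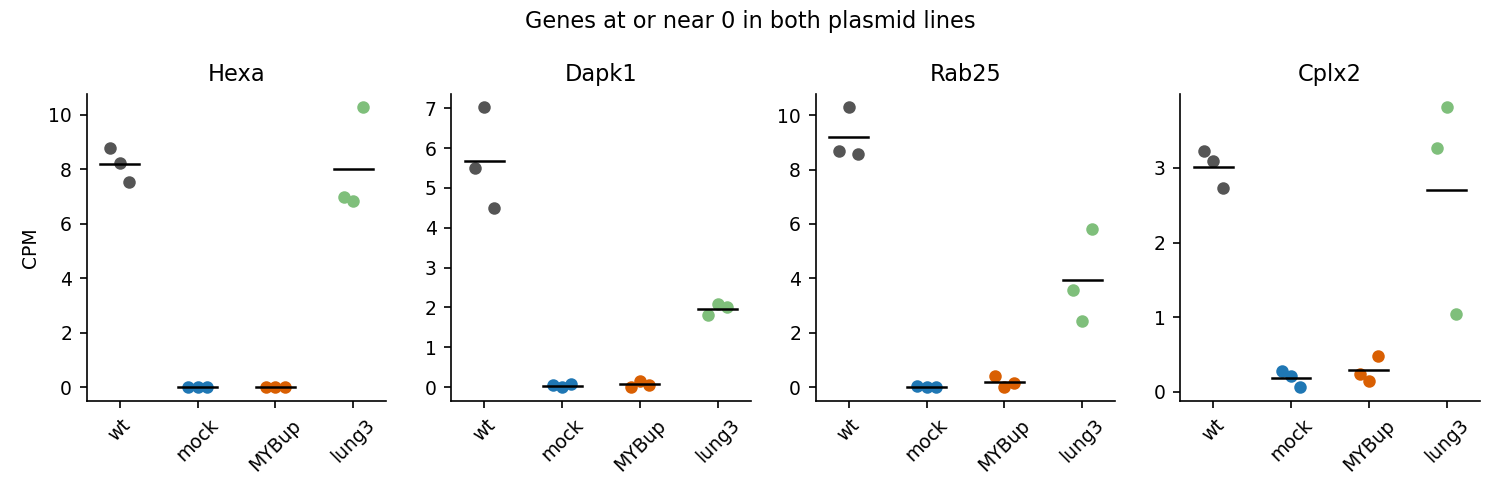
CPM per library of Hexa, Dapk1, Rab25 and Cplx2 in wt, mock, MYBup and lung3, with a line at each group's mean. All 6 plasmid libraries lie at or near 0, and the wt libraries lie between 2.73 and 10.3 CPM.

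The plot of the near-zero genes shows lung3 close to wt for Hexa, and well under wt for Dapk1 and Rab25. Several further genes with low levels in a plasmid line or in wt were chosen after their values were seen. Ap1m2, the epithelial form of a clathrin adaptor subunit, had 129 counts in wt and 1 in the plasmid lines, a ratio of 183 (32.2 to 7269). Mal2, which takes part in transport to the apical membrane, had 496 counts in wt, 50 in mock and 0 in MYBup, so it was near 0 in MYBup alone. Cldn7 is described with the epithelial genes below. In the other direction, Tbc1d9, which encodes a Rab-regulating protein, had 3 counts in wt and 370 in the plasmid lines, a ratio of 87.1 (29.6 to 424), with 0 counts in lung3. Ngfr, the low-affinity neurotrophin receptor, had 0 counts in wt and 103 in the plasmid lines, 95 of them in mock and 8 in MYBup, at least 24.3-fold higher. Tie1, an endothelial receptor kinase, stood at 0, 0.0413 and 0.0480 CPM in wt, 1.52, 1.5 and 1.31 CPM in mock and 0.733, 0.813 and 1.07 CPM in MYBup, 2 counts against 113 and a ratio of 39.9 (10.8 to 334). Of the other endothelial markers, Kdr and Cldn5 had 0 counts in the same libraries. Egfl7 stood at a mean of 9.2 CPM in wt, 8.8 in mock and 7.2 in MYBup.

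Genes were also read in lists by function, 28 of which described pathways and cell features. The median log2 fold change of the mean of both lines was -0.01 over all tested genes, and the background for a shared call was 9.87% higher and 8.95% lower. Counts and medians here describe the lists, and no list was tested against other genes.

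**Figure D4:**
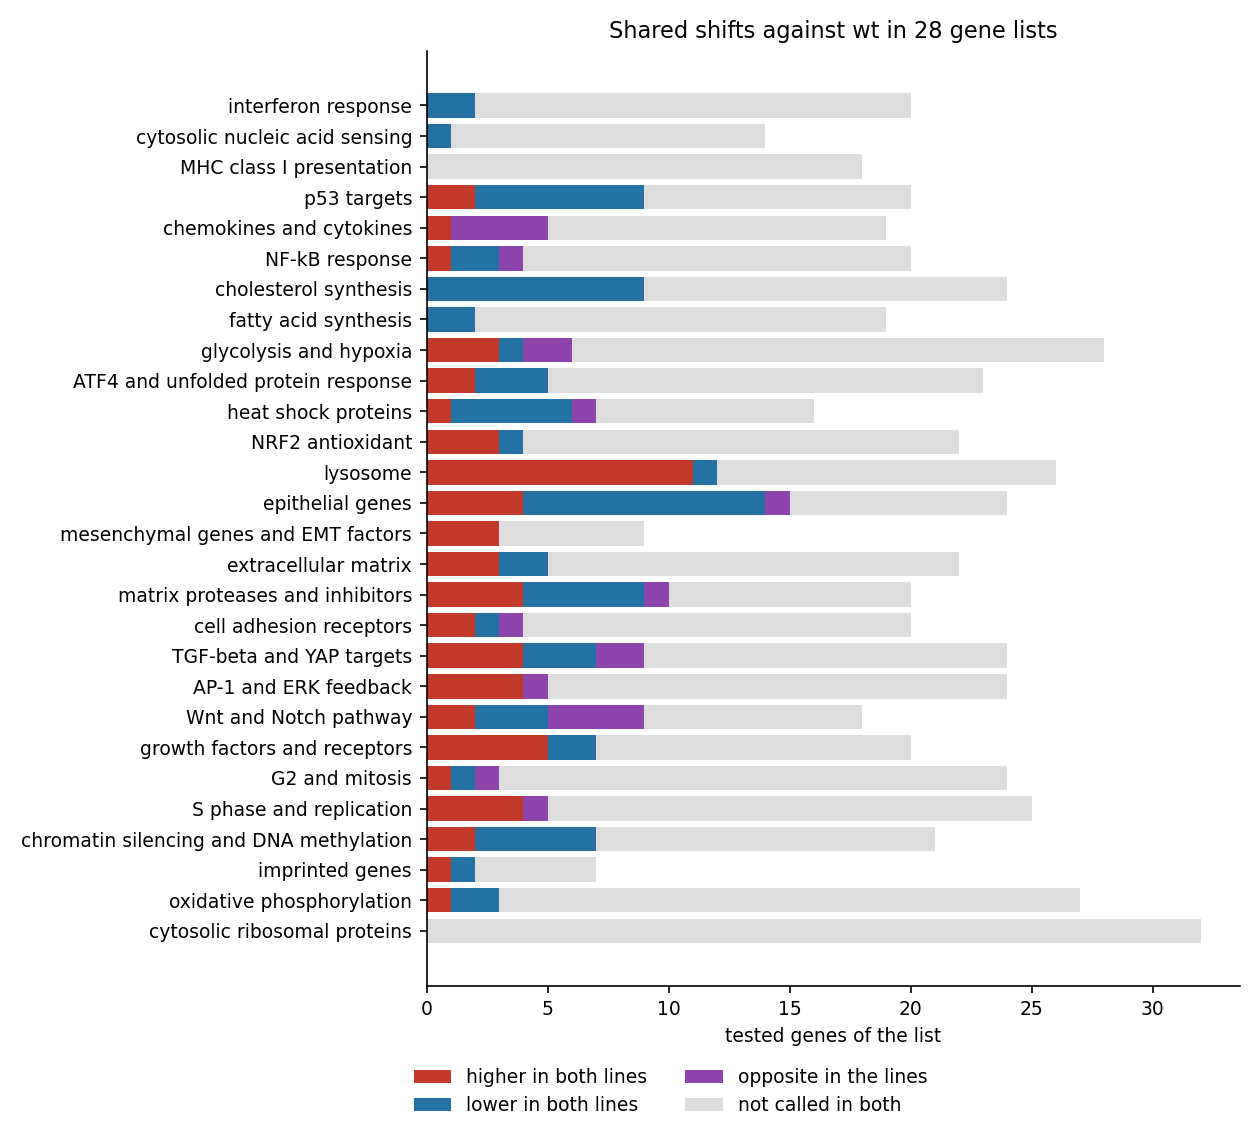
Number of tested genes in each of 28 lists that were called higher in both plasmid lines, lower in both, opposite ways, or not called in both. The lysosome list holds 11 higher genes of 26, the cholesterol list 9 lower of 24 and the epithelial list 10 lower of 24.

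In the plot of the gene lists, most shared calls were higher for lysosome and lower for cholesterol synthesis, p53 targets and epithelial genes. Lists with few or no shared calls included ribosomal proteins and MHC class I. Others held shared calls in both directions, such as matrix proteases and inhibitors (4 higher, 5 lower) and TGF-beta and YAP targets (4 and 3).

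Lysosomes break down proteins, lipids and sugars with acid hydrolases, and many of their genes carry a short E-box element, TCACGTGA, bound by the factors Tfeb and Tfe3. Of 26 tested lysosome genes, 11 were higher in both lines and 1, Hexa, was lower, with a median of 0.28 (also with Hexa set at its bound). The 11 became 8 without wt replicate 2. Ctsd, which encodes the aspartic protease cathepsin D (ENSMUSG00000007891, chr7:142375911-142388038), stood at 214, 227 and 208 CPM in wt. It stood at 326, 367 and 327 CPM in mock and 389, 315 and 318 CPM in MYBup, higher by 0.65 in both lines (SE 0.11, adjusted p = 0.000481 in mock and 0.000432 in MYBup). No wt or lung3 library reached the lowest plasmid library.

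Ctsh, a cysteine cathepsin, stood at 109, 115 and 113 CPM in wt, 155, 194 and 176 CPM in mock and 214, 181 and 177 CPM in MYBup (0.64 and 0.76). Ctsa, the protective protein of lysosomal sialidase, was higher by 0.45 and 0.59. Of the genes for membrane and transport proteins, Lamp1 rose by 0.21 and 0.37, Lamp2 by 0.57 and 0.33, and the cholesterol carrier gene Npc2 by 1.01 and 0.50, the last with a larger rise in mock (adjusted p = 0.0048). The autophagy receptor gene Sqstm1 stood at 279, 241 and 266 CPM in wt and rose by 0.81 in mock and 0.34 in MYBup. The factor gene Tfe3 was higher in both lines (0.53 and 0.35), while Tfeb was called in neither (adjusted p = 0.0713 and 0.966). Lysosome members beside Ctsd, Ctsh and Hexa were chosen after their values were seen.

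The TCACGTGA element was looked for, on both strands, in the 250 bases before the start of each gene in RefSeq promoters of GRCm38.p6, which held 19 of the 26 lysosome genes. It was present in 3 of these 19, Ctsa, Ctsd and Mcoln1, and in 1.88% of 8872 tested genes and 0.907% of all 27025 genes with a promoter. In the cholesterol list, the sterol regulatory element TCACNCCAC was present in 1 of 17 genes, Hmgcs1, and in 1.21% of tested and 1.22% of all genes. The 30 bases around each match are shown because these are the list members whose promoters hold the element, with the element in capitals.
Ctsa, chr2:164833743-164833772, plus strand: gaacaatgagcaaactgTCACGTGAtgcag
Ctsd, chr7:142387908-142387937, minus strand: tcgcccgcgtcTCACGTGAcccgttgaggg
Mcoln1, chr8:3500462-3500491, plus strand: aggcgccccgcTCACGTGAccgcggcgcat
Hmgcs1, chr13:119690203-119690232, plus strand: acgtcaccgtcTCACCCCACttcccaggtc
The matches start 13, 99, 46 and 137 bases before the gene's start in RefSeq. Ctsa and Ctsd were higher in both lines, Mcoln1, a lysosomal calcium channel, was called in MYBup alone (0.38, adjusted p = 0.0147, against -0.09, adjusted p = 0.54, in mock), and Hmgcs1 was lower in both. A match describes the letters only and says nothing of binding.

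Epithelial genes moved in both directions. Of 24 tested, 10 were lower in both lines, 4 (Krt8, Cldn3, Jup and Esrp1) were higher in both and Prom2 went opposite ways, with a median of -0.45. With single libraries left out, the 10 ran from 8 to 11. Of the 8 mammary tumour cell markers, Cdh1, Epcam and Cldn7 were lower in both lines and Krt8 and Cd24a higher. Cdh1, which encodes E-cadherin, the adhesion molecule of epithelial junctions (ENSMUSG00000000303, chr8:106603351-106670246), stood at 443, 464 and 537 CPM in wt. It fell to 290.5, 257 and 283 CPM in mock and 254, 267 and 262 CPM in MYBup, by -0.80 (SE 0.10) and -0.88 (SE 0.10) on the log2 scale. Every untransfected library, lung3 included at 423 to 524 CPM, was above every plasmid library.

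The tight junction genes did not move as a group. Cldn7 (ENSMUSG00000018569, chr11:69964779-69967885) stood at 9.72, 8.63 and 13.8 CPM in wt, 1.42, 2.5 and 1.37 CPM in mock and 0.815, 1.04 and 1.60 CPM in MYBup, a fall of -2.62 (SE 0.31) and -3.15 (SE 0.33). Cldn4 fell by -0.81 and -1.68 and Ocln by -0.71 and -0.68, while Cldn3 rose, as given above. The splicing regulators of epithelial transcripts also went apart: Esrp1 was higher (0.50 and 0.74) and Esrp2 lower (-1.13 and -1.34, sharing exon bases with Nfatc3).

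Keratin 8, the intermediate filament protein of simple epithelia, was higher: Krt8 stood at 825, 813 and 887 CPM in wt and rose by 0.44 in mock and 0.45 in MYBup. Its partner Krt18 was called in mock (0.35, adjusted p = 0.0156) and not in MYBup (0.09, adjusted p = 0.52). The marker Cd24a, a surface sialoglycoprotein, rose from 296, 319.9 and 343 CPM in wt by 0.80 and 0.69, and Epcam fell by -0.35 (adjusted p = 0.0455) and -0.47. The exons of Krt8 overlap those of Gm36026. Epithelial members other than Cdh1, Cldn7, Rab25, Cd24a and Cldn3 were chosen after their values were seen.

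Of 9 tested mesenchymal genes and factors of epithelial-mesenchymal transition, 3 were higher in both lines and 0 lower by edgeR, DESeq2 or limma voom (0 also at an unadjusted p under 0.05), with a median of 0.50. Vim, the intermediate filament vimentin, stood at 3331, 3169.7 and 3386 CPM in wt, 4187, 4688 and 4232 CPM in mock and 5567, 5580.2 and 5695 CPM in MYBup. It rose by 0.41 (adjusted p = 0.00619) and 0.77 (adjusted p = 8.32e-05), with a larger rise in MYBup (adjusted p = 0.016). Twist1, a repressor of E-cadherin, stood at 15.4, 13.4 and 13.9 CPM in wt and rose by 0.81 in both lines. Foxc2 is the other of the 3. Fn1, the matrix protein fibronectin, was called in neither line (adjusted p = 0.229 and 0.0808), with wt replicate 3 at 2319.8 CPM against 1285 and 1291 CPM in the other wt libraries. Only 9 of the 18 genes of this list were tested, and Zeb1 and Cdh2 were among those that did not pass the filter on low counts.

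The cholesterol synthesis genes that changed in both lines were all lower, and most of the list was lower in MYBup than in mock. Cells make cholesterol from acetyl-CoA by a chain of enzymes whose genes are driven together by the factor Srebf2. Of 24 tested genes of the list, 9 were lower in both lines and 0 higher (0 also at an unadjusted p under 0.05 and by DESeq2 or limma voom). The count of 9 fell to 5 without mock replicate 3, without wt replicate 1 or without wt replicate 3. The median was -0.23 in mock and -1.02 in MYBup, where 20 of the 24 were lower than wt (18.7% of all tested genes were), and 18 were lower in MYBup than in mock (12.6% of all tested genes).

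Idi1, the isomerase of isopentenyl diphosphate (ENSMUSG00000058258, chr13:8885501-8892451), stood at 40.7, 32.0 and 48.6 CPM in wt, 28.2, 23 and 21.0 CPM in mock and 9.29, 10.3 and 11.1 CPM in MYBup. It fell by -0.74 (adjusted p = 0.00149) and -1.97 (adjusted p = 1.88e-06), and the step from mock to MYBup was -1.23. Hsd17b7, which acts late in the chain, fell by -0.66 and -0.87 with no call between the lines (adjusted p = 0.325). Mvd fell by -0.63 (adjusted p = 0.0451) and -0.91, and it lost its shared call in 9 of 17 other settings.

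Other members, chosen after their values were seen, parted between the lines. Hmgcs1 fell by -0.40 in mock (adjusted p = 0.028) and -1.59 in MYBup, Sqle by -0.38 and -1.15 and Srebf2 by -0.48 and -1.0. Insig1, which encodes a sterol-sensing protein of the endoplasmic reticulum, was not called in mock (0.23, adjusted p = 0.287) and fell by -1.22 in MYBup. Fatty acid genes shared fewer calls, with 2 of 19 lower in both lines, Scd1 and Gpam, and 0 higher (0 also by DESeq2, limma voom and at an unadjusted p under 0.05). The 2 became 1 without mock replicate 1, MYBup replicates 1 or 2 or wt replicate 1, the 0 higher became 1 without wt replicate 3, and Gpam lost its call in 9 of 17 settings. The synthase gene Fasn was at -0.01 in mock (adjusted p = 0.953) and fell by -0.79 in MYBup.

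Of 20 p53 targets, genes that the damage-responsive factor p53 can activate, 7 were lower and 2 higher in both lines, with a median of -0.29. The 7 became 5 without mock replicate 1. The 2 became 1 without mock replicate 2, MYBup replicates 2 or 3, or wt replicates 1 or 3. Gadd45b, a stress-response gene, stood at 26.5, 18.1 and 29.7 CPM in wt and fell to 11, 10.6 and 10.5 CPM in mock and 11.5, 14.6 and 13.9 CPM in MYBup. Plk2, a kinase of the cell cycle, fell from 115, 111 and 117 CPM by -0.68 and -0.81. Trp53inp1, which promotes autophagy and cell death, rose from 1.05, 1.40 and 2.30 CPM in wt by 1.41 and 1.2. The best known targets were not shared: Cdkn1a was at -0.21 in mock (adjusted p = 0.138) and -0.37 in MYBup (adjusted p = 0.0147), and Mdm2 at 0.14 (adjusted p = 0.23) and 0.34 (adjusted p = 0.00727). Cdkn1a and Mdm2 were chosen after their values were seen.

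Heat shock proteins fold other proteins under stress. Of 16 tested, 5 were lower and 1 higher in both lines. The 5 became 3 with upper-quartile scaling, without mock replicate 1, without wt replicate 1 or without wt replicate 2, and the 1 higher became 2 without mock replicate 3. Hspd1, the mitochondrial chaperonin, stood at 1266, 1391 and 1322 CPM in wt, 983, 1014 and 949 CPM in mock and 921, 835 and 838 CPM in MYBup, a fall of -0.43 and -0.62, and lung3 lay at or above 1518 CPM. Hspd1 shares exon bases with Hspe1. Bag3, a partner of Hsp70 in protein quality control, was the higher member (0.34 and 0.46).

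The chromatin list covered silencing and DNA methylation, and of its 21 tested genes 5 were lower and 2 higher in both lines, and the 2 became 1 without MYBup replicate 1 or wt replicate 1. The enzymes that set new DNA methylation were both lower. Dnmt3b stood at 4.54, 4.54 and 3.26 CPM in wt and fell to 1.57, 1.71 and 2.22 CPM in mock and 2.36, 2.44 and 2.67 CPM in MYBup. Dnmt3a stood at 35.5, 30.5 and 26.3 CPM in wt and fell by -0.57 and -0.71. Kdm5b, a demethylase of histone H3, rose from 21.7, 21.6 and 28.6 CPM by 0.66 and 0.93. A separate list held 22 imprinted genes, of which 7 were tested. Of these, 1 was higher in both lines, 1 was lower and 5 were not called in both. Impact fell from 28.1, 29.0 and 25 CPM to 13.9, 13.2 and 12.6 CPM in mock and 10.4, 8.65 and 7.63 CPM in MYBup. Gnas, which encodes a G protein subunit, was the higher gene and rose by 0.46 and 0.33.

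Genes that act outside the cell moved in both directions. Of 20 matrix proteases and inhibitors, 4 were higher and 5 lower in both lines, and Plat went opposite ways. The 5 became 3 without mock replicate 1 or without mock replicate 2. Beside Serpine2, Mmp3 and Adamts1, the inhibitor gene Serpinb2 stood at 10.1, 18.0 and 6.86 CPM in wt and fell to 0.996, 1.07 and 0.654 CPM in mock and 2.28, 1.70 and 1.49 CPM in MYBup. Serpinb2 shares exon bases with Serpinb10. Serpine2 and Serpinb2, both inhibitors of plasminogen activators, thus went opposite ways to each other in the same libraries.

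Of 22 extracellular matrix genes, 3 were higher and 2 lower. Fbln2, which encodes fibulin-2, rose by 0.67 and 0.40, and Lama3, given above, was one of the lower pair. Thbs1, the secreted glycoprotein thrombospondin-1, stood at 636, 674 and 794 CPM in wt and fell by -0.70 and -1.0, and it lost its shared call without wt replicate 3 (adjusted p = 0.0554). The 2 lower matrix genes thus became 1. Of 20 cell adhesion receptors 2 were higher and 1 lower, with 2 lower without wt replicate 2 and 4 higher with upper-quartile scaling. The heparan sulfate proteoglycans Sdc1 and Sdc4 were the higher pair: Sdc1 rose from 182, 193 and 169 CPM in wt to 304, 336 and 293 CPM in mock and 298, 297 and 302 CPM in MYBup, and Sdc4 by 0.51 and 0.43. L1cam, a neural adhesion molecule, fell by -2.09 in mock and -0.77 in MYBup.

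Of 20 growth factors and receptors, 5 were higher and 2 lower in both lines, and the 5 became 3 without wt replicate 3. The 2 became 1 without mock replicates 1 or 2 or wt replicates 1 or 3. Ephb4, a receptor of ephrin ligands, stood at 85.7, 84.3 and 81.3 CPM in wt and rose by 0.76 and 0.96. Erbb3, a partner receptor of the ErbB family, stood at 14.7, 15.5 and 13.5 CPM in wt and fell to 7.02, 4.99 and 8.69 CPM in mock and 4.89, 7.47 and 6.61 CPM in MYBup. Egfr fell by -0.73 in mock (adjusted p = 0.0358) and -2.45 in MYBup, and the mock call was lost without mock replicates 1 or 2 and without wt replicates 1 or 3. The Egfr ligands Areg (0.66 and 0.99) and Tgfa (0.71 and 0.41), chosen after their values were seen, were higher in both.

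Of 24 genes of AP-1 and of feedback on the ERK kinases, 4 were higher and 0 lower in both lines by edgeR, with 0 lower also at an unadjusted p under 0.05 and by DESeq2 and limma voom. The 4 became 2 without MYBup replicate 2, MYBup replicate 3 or wt replicate 2. Dusp6, a phosphatase that acts on ERK, stood at 134, 135 and 144 CPM in wt, 188, 197 and 211 CPM in mock and 198, 196 and 207 CPM in MYBup. Etv4, a factor of the ETS family, rose by 0.59 and 0.48. Fos, the immediate-early subunit of AP-1, stood at 3.59, 7.19 and 7.86 CPM in wt and overlapped mock at 10.4, 18.6 and 6.67 CPM; its mock call (adjusted p = 0.0428) was lost in 10 of 17 settings, while MYBup stood at 23.4 to 30.2 CPM.

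Of 24 TGF-beta and YAP targets 4 were higher and 3 lower, and the 4 became 2 without any of the wt replicates, mock replicate 3, or MYBup replicates 2 or 3. Edn1, the vasoactive peptide endothelin-1, stood at 1.36, 1.32 and 2.97 CPM in wt and at 0.373 to 0.665 CPM in the plasmid lines, while lung3 held 6.65 to 8.54 CPM. Of 18 Wnt and Notch genes 2 were higher, 3 lower and 4 opposite (Nkd2, Sfrp1, Wnt7a and Jag2). The 3 became 1 without wt replicate 2, and the 2 became 1 without mock replicate 3, MYBup replicates 2 or 3, or wt replicates 2 or 3. The receptor gene Notch1 stood at 48.4, 45.1 and 56.5 CPM in wt and fell by -1.07 and -1.35, while Hes1, a repressor that Notch can activate, rose by 0.60 and 0.54. Rnf43, a ligase that removes Wnt receptors, had 463 counts in wt, 4 in mock and 181 in MYBup, 87.0-fold lower than wt in mock (33.7 to 321) and 1.70-fold lower in MYBup (1.43 to 2.03), and it lost its shared call without MYBup replicate 1, wt replicate 1 or wt replicate 2.

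Of 28 glycolysis and hypoxia genes 3 were higher and 1 lower in both lines, with Hk2 and Ankrd37 opposite and 2 lower without wt replicate 2. Egln3, an oxygen-sensing hydroxylase, rose from 93.4, 88.8 and 94.1 CPM by 0.79 and 0.88. P4ha2, a collagen prolyl hydroxylase, was higher in both lines and more so in MYBup (by 0.69 against mock), and the oxidoreductase gene Ero1l was the lower member. Of 22 antioxidant genes of the factor NRF2, 3 were higher and 1 lower, and the 3 became 1 without wt replicate 1 and 5 without mock replicate 3, while the 1 became 0 without wt replicate 1. Fth1, the heavy chain of the iron store ferritin, stood at 1901, 1815 and 1665 CPM in wt, 2673, 3607 and 2738 CPM in mock and 3281, 3475 and 3562 CPM in MYBup. Of 23 genes of ATF4 and the unfolded protein response 2 were higher and 3 lower, and the 3 became 0 without MYBup replicates 2 or 3 or without wt replicate 1, and with upper-quartile scaling, and 1 without MYBup replicate 1 or wt replicate 3.

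The interferon, nucleic acid sensing, NF-kB and chemokine lists held shared calls in 5.26% to 15% of tested genes, against 18.8% of all. Of 20 interferon response genes 2 were lower, Bst2 and Oas1a, and 0 higher by edgeR, with 1 higher at an unadjusted p under 0.05 and 0 by DESeq2 or limma voom, but 2 higher by edgeR without wt replicate 3. Bst2, which tethers enveloped viruses to the cell surface, stood at 14.5, 12.8 and 24.1 CPM in wt and fell by -1.26 and -1.32. Of 14 genes for sensing nucleic acids in the cytosol 0 were higher and 1, Samhd1, was lower, with 2 lower and 0 higher at an unadjusted p under 0.05. Samhd1 lost its call without wt replicate 3. Of 20 NF-kB genes 1 was higher, Tnfaip2 (1.28 and 0.53), and 2 were lower, the subunit gene Rel (-1.02 and -1.11) and Sod2 (-0.70 and -0.52). Without mock replicate 3, 4 were lower. Of 19 chemokines and cytokines, Il18, an interleukin of the IL-1 family, was the 1 higher in both (0.863, 0.785 and 1.49 CPM in wt, 2.29 to 3.56 CPM in the plasmid lines), 0 were lower (0 also at an unadjusted p under 0.05, by DESeq2 and by limma voom) and 4 went opposite ways: Ccl2, Cxcl5, Csf3 and Tslp. Without wt replicate 3, 3 were higher in both.

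The MHC class I list and the lists of growth and core functions held shared calls in 0% to 16% of tested genes, against 18.8% of all. Of 18 MHC class I genes and of 32 cytosolic ribosomal protein genes, 0 were called the same way in both lines by edgeR, DESeq2 or limma voom, and 0 at an unadjusted p under 0.05. Of 24 genes of G2 and mitosis 1 was higher (Ccnb2) and 1 lower (Bub1b), and of 27 genes of oxidative phosphorylation 1 was higher (Ndufa1) and 2 lower (Cyc1 and Ndufs1). The lower mitosis count became 2 without mock replicate 3 and 0 without wt replicates 1 or 2. In oxidative phosphorylation the 1 higher became 0 without mock replicates 1 or 2, MYBup replicates 1 or 3 or wt replicates 1 or 3, and 2 without mock replicate 3. The 2 lower became 1 without mock replicates 1 or 3, MYBup replicates 2 or 3 or wt replicates 1 or 2. Of 25 genes of S phase and replication 4 were higher, among them Fen1, Mcm7 and E2f1, and that count became 1 without mock replicate 1, 2 without wt replicate 1 and 0 without wt replicate 3.

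Of the 168 genes that went opposite ways, 92 had mock higher and MYBup lower than wt, and 76 the reverse. The total of 168 became 102 without MYBup replicate 3, 105 without wt replicate 1 and 103 without wt replicate 2. Ccl2, a chemokine that recruits monocytes, stood at 0.818, 1.03 and 2.16 CPM in wt, 6.21, 7.70 and 1.63 CPM in mock and 0.0815, 0.0739 and 0 CPM in MYBup. Mock replicate 3 overlapped wt, and the calls were near the threshold (adjusted p = 0.0364 and 0.0478). Cxcl5, a chemokine for neutrophils, stood at 40.2, 30.9 and 38.7 CPM in wt, 186, 195 and 39.0 CPM in mock and 9.53, 8.35 and 7.63 CPM in MYBup. Here too mock replicate 3 lay with wt and the other mock libraries far above it.

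B4galt6, a glycolipid synthase, stood at 8.77, 9.13 and 18.1 CPM in wt and 29.7, 24.5 and 30.9 CPM in mock, with 1 count in all of MYBup. Nsd1, a histone methyltransferase, was higher in mock (1.10) and lower in MYBup (-1.20). In the reverse direction, Rbpms, an RNA-binding protein, stood at 6.86, 6.86 and 9.78 CPM in wt, 0.427, 0.356 and 0.327 CPM in mock and 19.9, 19.4 and 18.7 CPM in MYBup. Plat, the tissue plasminogen activator, stood at 8.68, 8.38 and 8.10 CPM in wt, 3.98, 4.28 and 4.51 CPM in mock and 15.2, 19.3 and 17.3 CPM in MYBup, with no overlap between these 3 groups. Sulf2, which trims heparan sulfate, and the proteoglycan gene Sdc3 had the same order of groups (-1.31 and 0.95, and -0.91 and 1.12).

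The shared genes were spread unevenly over the chromosomes. On chromosome 12, 27.6% of 399 tested genes were higher in both lines and 2.01% lower, where 9.87% and 8.95% of all tested genes were. The median log2 fold change on chromosome 12 was 0.21 in mock and 0.19 in MYBup, against 0.07 in lung3, and each of its 6 windows of 20 Mb held 13 to 31 higher and 1 to 3 lower genes. Chromosomes 5, 4 and 6 held 17.9%, 17.7% and 15.4% higher genes. Lower genes made up 16.8% on chromosome 8, 15.5% on chromosome 14, 14.9% on chromosome 3, 14.7% on chromosome 15 and 13.8% on chromosome 13. On chromosomes 8 and 14 the median was lower in mock (-0.30 and -0.34) than in MYBup (-0.03 on each), so the lines were not alike there. With per-chromosome centring, each library had an offset for each chromosome, the median deviation of its log2 CPM from the gene means. That fit gave 1929 shared genes, 1002 higher and 927 lower, and 1551 of these were also among the 2125 shared genes. DNA copy number was not analysed here. Npc2, Fos and Twist1 lie on chromosome 12, and Cdh1, Foxc2, Mvd, Rbpms and Plat on chromosome 8.

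**Figure D5:**
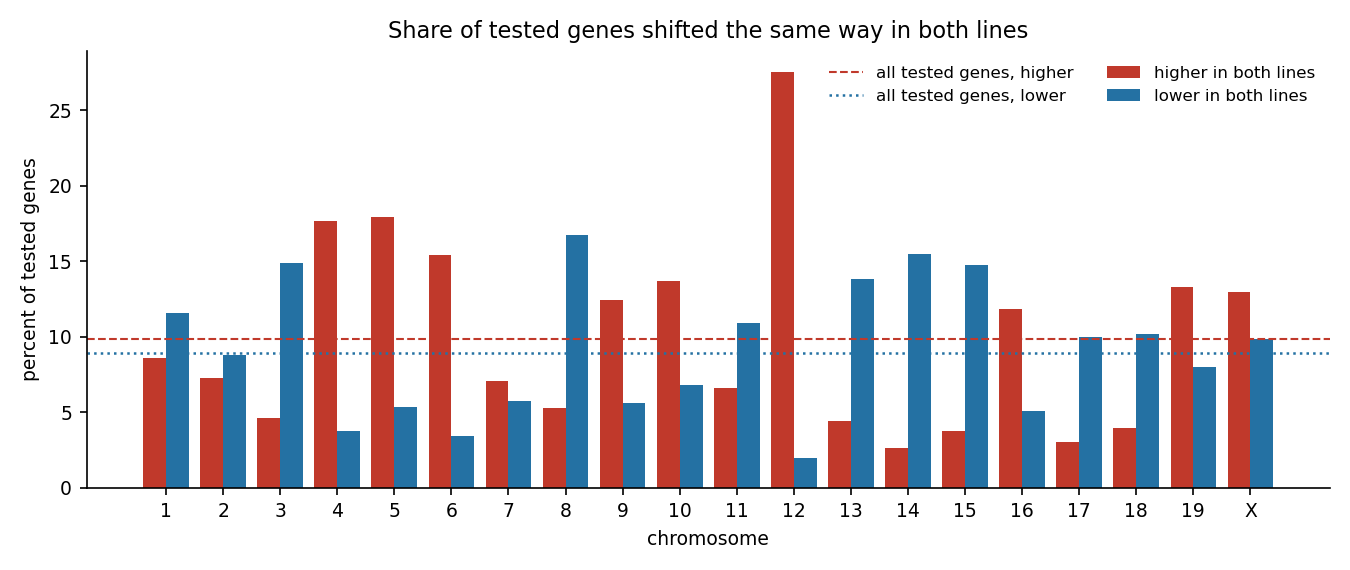
Percent of the tested genes of each chromosome that were called higher (red bars) or lower (blue bars) in both plasmid lines, with lines at the percent over all tested genes, 9.87 (dashed) and 8.95 (dotted). Chromosome 12 holds the largest percent of higher genes, 27.6, and chromosome 8 the largest percent of lower genes, 16.8.

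The plot by chromosome shows chromosomes 4, 5, 6, 9, 10, 12, 16 and 19 above the line for higher genes. These also lie under the line for lower genes. Chromosomes 1, 3, 8, 11, 13, 14, 15, 17 and 18 lie the other way round. Chromosomes 2 and 7 lie under both lines, and X lies above both.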

How the data were processed

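RNA was measured by sequencing in 12 libraries, with column-purified RNA and an Illumina TruSeq kit per the labels' protocols. The authors deposited raw read counts for each gene, not normalised. STAR, edgeR and GRCm38 were used per the submitters' processing notes; the sources used here give no version, counter, annotation or strand setting. Counts of over 4 digits (2708 values) hold at most 4 significant digits. Of 22880 features 22570 had a symbol and 7336 had 0 counts throughout. Coordinates are GENCODE M21 on GRCm38.

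Tests used R 4.3.3 and edgeR 4.0.16, with filterByExpr, TMM factors and the quasi-likelihood F test in 1 fit of all 12 libraries with a term per group (lung3 shares the spread), Benjamini-Hochberg over 11291 genes, threshold 0.05. SE is the absolute log2 fold change over the square root of F. Count ratios have exact 95% intervals, and 0 counts a floor of 3 over the group; both cover counting error only. No replicate pair agreed within counting noise, so none was merged. The script was checked on simulated counts.

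Named genes are the 12 leading shared rises and falls (average log2 CPM of at least 3, non-overlapping with wt, ranked by the smaller change), up to 3 shared members per list, 4 opposite genes each way, up to 5 on-off genes each way and Myb; others are marked in the text, and some genes are not reported here. The comparison, members and lists were chosen with earlier results of these data known. Same-number correlations between mock and MYBup were -0.191, -0.496 and 0.382, and different-number ones ran from -0.541 to 0.636. With so few libraries they do not settle if the numbers pair libraries. Alternatives were other scaling, no filter, DESeq2 1.42.0, limma 3.58.1 voom, 9 libraries, a replicate block, per-chromosome centring, leaving out each library and a 2-fold minimum. Figures used Python 3.11.15 with matplotlib 3.10.9.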

Additional observations from a re-analysis of the deposited data

Results flagged for a closer look

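Each gene here was taken up because its shift from wt differed between the plasmid lines, by the edgeR test of MYBup against mock (adjusted p under 0.05 over all 11291 genes). The groups of 3 libraries were too small for a test of single outlying libraries. Values are MYBup against mock on the log2 scale, and no explanation was tested.

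Of genes lower than wt in both lines, the fall was larger in MYBup for Ly6e (-3.24, 9 counts against 99, a ratio of 9.72 with an interval of 4.92 to 21.9), Fgfbp1 (-2.25), Egfr (-1.71), Idi1 (-1.23), Scd1 (-0.73), Nup210 (-0.61) and Impact (-0.59). The fall was larger in mock for Rnf43 (5.54, 181 counts against 4, a ratio of 51.2 with an interval of 19.7 to 190), L1cam (1.31), Adamts1 (0.62) and Ccnb1ip1 (0.52).

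Of genes higher than wt in both lines, the rise was larger in MYBup for Fos (1.18), Vasn (0.75), P4ha2 (0.69) and Vim (0.36), and larger in mock for Aldh3a1 (-1.07), Tgfbi (-0.91) and Tnfaip2 (-0.75).

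Of genes with opposite shifts, MYBup was lower than mock for B4galt6 (-9.89, 1 count against 1444, a ratio of 1276 with an interval of 228.7 to 50450), Ccl2 (-6.63, 2 counts against 264, a ratio of 117 with an interval of 32.0 to 968), Cxcl5 (-4.05) and Nsd1 (-2.30). MYBup was higher for Rbpms (5.65, 856 counts against 19, a ratio of 51.0 with an interval of 32.4 to 85.1), Sulf2 (2.26), Sdc3 (2.03) and Plat (2.02). The fitted values of genes with few counts depend on the prior count. Without mock replicate 3, which lay with wt for Ccl2 and Cxcl5, the opposite genes numbered 177.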

How the results depend on the processing

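No fold change against wt of a shared named gene changed sign in any setting. For the named genes with opposite shifts only MYBup against mock was followed, and it kept its sign. Their fold changes against wt were not followed over the settings. Requiring at least 2-fold left 552 genes for the mean of both lines against wt, 637 for mock, 725 for MYBup, 246 shared, 43 opposite, 62 of the shared ones differing between the lines and 26 shared list members. On-off limits of 0.5 and 2 CPM gave 4 genes, and 0.2 and 5 CPM gave 1. Leaving out each library gave 3364 to 4708 genes for the mean, 3084 to 4127 for mock, 3256 to 4881 for MYBup, 1502 to 2142 shared, 102 to 177 opposite, 210 to 394 differing between the lines, 103 to 136 list members and 2 to 3 on-off genes, with Myb at 2.78 to 3.06. The shared count was 2111 with RLE factors, 2131 with upper-quartile factors, 2183 with DESeq2, 2178 with limma voom, 2016 without the filter, 2067 with 9 libraries and 1929 centred per chromosome. Upper-quartile factors split MYBup against wt into 2688 higher and 1629 lower, 62.3% higher against 50.9%, and turned the balance of the mean of both lines to 2628 higher and 1850 lower and that of the list members from 67 and 69 to 77 and 58. At least 2-fold, the mean had 309 higher and 243 lower. With 1 term for all 6 plasmid libraries, 3017 genes differed from wt. The replicate numbers are not known to pair libraries; the fit with a replicate block gave 4015 genes for the mean, 3513 for mock, 3770 for MYBup, 1739 shared, 141 opposite, 289 differing between the lines and 116 list members. Of 100 named genes followed, with the opposite ones followed by MYBup against mock alone, 81 kept their call in all 17 settings. The call was lost in 1 or more settings for 19: Aldh3a1, Atf3, Bub1b, Ccl2, Cryab, Cyc1, E2f1, Egfr, Fen1, Fos, Gpam, Gsta4, Mcm7, Mvd, Ndufa1, Rnf43, Samhd1, Tgfbi and Thbs1. Depth limits genes under about 1 CPM, where ratios of counts have wide intervals.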
